A study of Arabidopsis thaliana with 24 samples.

Results

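The 10 genes described here encode chaperones and folding enzymes of the Arabidopsis thaliana endoplasmic reticulum (ER), the compartment in which the elf18 receptor EFR is folded. They were taken by locus from a table of read counts over 21407 loci, and all 10 were found and passed the filter on low counts, among 21015 loci tested. The members are the Hsp70-type BiP genes BIP1 (AT5G28540), BIP2 (AT5G42020) and BIP3 (AT1G09080), the BiP partners ERDJ3B (AT3G62600) and SDF2 (AT2G25110), the lectin chaperones CRT1 (AT1G56340), CRT3 (AT1G08450) and CNX1 (AT5G61790), the disulfide isomerase PDIL1-1 (AT1G21750) and the ER form of Hsp90, HSP90.7 (AT4G24190).

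Whole Col-0 seedlings, 2 weeks old, were either wild type (WT) or overexpressed the long noncoding RNA ELENA1 (OX), and each genotype was sampled untreated (0 h) and after 1 h, 6 h and 12 h with the peptide elf18 at 5 µM. The peptide was given in liquid medium to seedlings lifted from agar, and no group was moved without it, so a difference from 0 h may hold peptide, transfer and hour of day together, which cannot be told apart. Each of the 8 groups had 3 biological replicates, giving 24 libraries of polyadenylated RNA with 18767661 to 85230211 counts. Per the labels' protocols the replicates of each condition shared a pool. Where pools differed between groups, pool and group cannot be told apart, in comparisons of times and of genotypes alike. The sources used here give neither the promoter of the transgene nor the number of lines, and ELENA1 itself was not analysed here. The 5 leaf markers (photosynthesis genes such as RBCS1A and CAB2) and the 7 root markers (such as COBL9 and SCR) were all detected, so leaf and root RNA were both present. Levels are CPM (TMM-scaled counts relative to library size), changes are on the log2 scale with the standard error (SE) of the fit, and adjusted p-values are from edgeR's quasi-likelihood test with Benjamini-Hochberg adjustment over all genes tested, with 0.05 as the threshold.

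Secretory and membrane proteins enter the ER unfolded. BiP binds exposed stretches of such chains with the help of J-domain proteins such as ERdj3B, which acts in a complex with SDF2, and calreticulins and calnexin hold glycoproteins through their sugar chains until folding is complete. In Arabidopsis, mutants of SDF2, ERDJ3B or CRT3 accumulate little EFR, while the flagellin receptor FLS2 is much less affected. The other members serve many client proteins; HSP90.7, also called SHEPHERD, is needed for CLAVATA signalling. When unfolded proteins accumulate, the sensor IRE1 splices the mRNA of the transcription factor bZIP60 and the proteases S1P and S2P release bZIP28 and bZIP17 from the membrane. These factors act on promoters of chaperone genes through the ER stress elements.

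The promoters of BIP3 and PDIL1-1 are shown because they hold such elements and reach into no neighbouring gene. In the 300 bases before each annotated transcript start (TAIR10.1, RefSeq), on both strands, the ERSE-I type element (CCAAT, 10 free bases, CACG) was found in 4 of 10 members, BIP3 (with 2 matches), CRT1, PDIL1-1 and HSP90.7, against 0.747% of 27443 promoters of protein-coding genes. The UPRE type CCACGTCA was found in CRT1 (2 matches), PDIL1-1 and HSP90.7, against 1.33% of promoters. It was searched for after the first motif results had been seen. The TL1 element GAAGAAGAA, bound by the defence and growth regulator HSFB1 (TBF1), was found in BIP2 and CNX1, against 4.96%. The ERSE-II type (ATTGG, 1 free base, CCACG) was found in 0 members, against 0.0656% of promoters. No match to these 4 motifs lay in the windows of BIP1, ERDJ3B, SDF2 or CRT3, and the UPRE type and ERSE-I type matches of one promoter did not overlap. A match describes the letters only. In the lines below, capitals mark the matches, and a match on the opposite strand of the gene reads as its reverse complement (CGTG, 10 bases, ATTGG).
BIP3, chr1:2931851-2932150, minus strand: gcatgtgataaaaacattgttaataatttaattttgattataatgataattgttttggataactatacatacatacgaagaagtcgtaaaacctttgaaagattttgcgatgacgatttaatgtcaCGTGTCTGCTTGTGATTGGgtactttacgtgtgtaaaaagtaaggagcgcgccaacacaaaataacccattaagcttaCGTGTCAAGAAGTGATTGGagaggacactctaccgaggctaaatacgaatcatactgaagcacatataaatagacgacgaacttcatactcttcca
PDIL1-1, chr1:7645310-7645609, plus strand: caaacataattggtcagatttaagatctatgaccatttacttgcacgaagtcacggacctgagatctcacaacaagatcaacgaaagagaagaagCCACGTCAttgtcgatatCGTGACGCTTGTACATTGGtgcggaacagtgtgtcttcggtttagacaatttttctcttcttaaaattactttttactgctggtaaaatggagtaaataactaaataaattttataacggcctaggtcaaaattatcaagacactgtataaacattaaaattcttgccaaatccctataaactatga

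The windows of CRT1, CRT3, CNX1 and HSP90.7 reach into a neighbouring locus, so of CRT1 and HSP90.7 the ERSE-I type sites alone are given, each read in its own 5′ to 3′ direction beside the sites of the promoters above. The 5 sites share the fixed letters and differ in the free bases between them.
BIP3, 174 to 156 bases before the start: CCAATCACAAGCAGACACG
BIP3, 96 to 78 bases before the start: CCAATCACTTCTTGACACG
CRT1, 68 to 50 bases before the start: CCAATTAGTTAAATACACG
PDIL1-1, 187 to 169 bases before the start: CCAATGTACAAGCGTCACG
HSP90.7, 22 to 4 bases before the start: CCAATACAAAACTACCACG

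In untreated wild-type seedlings the members lay at 4 separate levels. Per kilobase of transcript, BIP1 stood at 157 CPM, CRT1 at 152, HSP90.7 at 151, BIP2 at 136, CNX1 at 135 and PDIL1-1 at 116, and the libraries of neighbours in this order overlapped. ERDJ3B (47.5 CPM per kilobase) and SDF2 (43.6) also overlapped each other and lay below all 6. CRT3 (32.0 CPM per kilobase) was below SDF2 in every library. BIP3, the BiP gene known for its induction under ER stress, was lowest at 0.540. At 6 h the order in wild type was BIP2 (516 CPM per kilobase), BIP1 (459), CNX1 (392), HSP90.7 and PDIL1-1 (both 331), CRT1 (263), ERDJ3B (148), SDF2 (98.4), CRT3 (58.6) and BIP3 (14.5). Of these neighbours, only HSP90.7 and PDIL1-1 overlapped. In the authors' pooled FPKM, the order of the 4 times was the same as in CPM for all 10 genes in both genotypes, while BIP1 and BIP2 changed places in some groups. BIP1 and BIP2 share 370 identical 75-base stretches, the length of a read, which is 13.4% of BIP1 and 14.5% of BIP2, so the split of reads between them is uncertain.

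**Figure D1:**
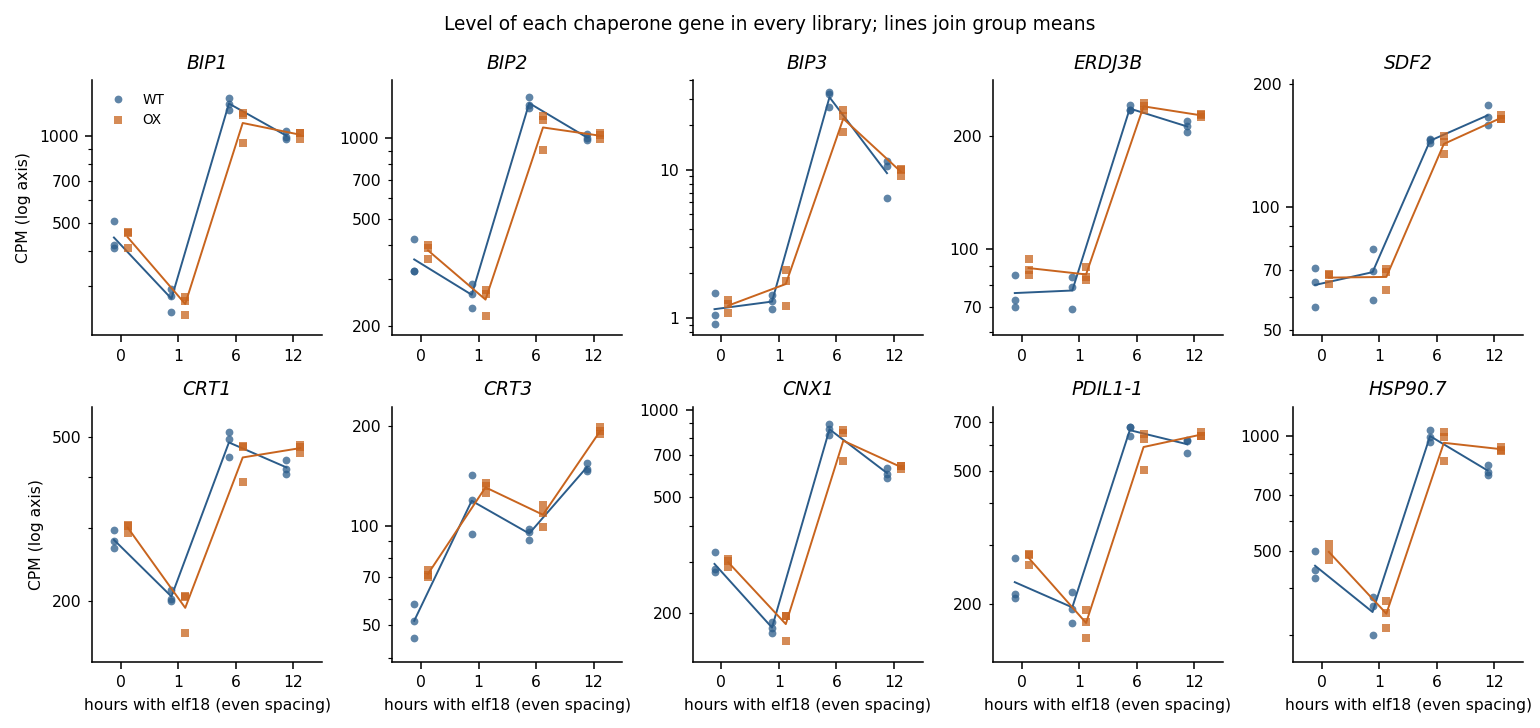
Level of each of the 10 genes in every library, in CPM on a log axis, against hours of elf18 (times evenly spaced), with wild type and the ELENA1 overexpressor drawn apart and lines through the group means. BIP3 goes from about 1 CPM at 0 h to between 17.9 and 33.4 CPM at 6 h, 6 other members dip at 1 h, and CRT3 is already higher at 1 h.

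In the first hour the abundant ER chaperones fell and CRT3 rose. In wild type 6 of 10 members fell between 0 h and 1 h (BIP1, BIP2, CRT1, CNX1, PDIL1-1 and HSP90.7), 1 rose (CRT3), and BIP3, ERDJ3B and SDF2 did not pass the test. Over all genes tested 32.6% fell and 35.2% rose in this comparison, so most genes moved either way. The median change of the members was -0.33, against 0.01 over all genes. In whole seedlings, fewer cells of a type and less RNA per cell cannot be told apart; the summed leaf markers rose from between 7845 and 11632 CPM at 0 h to between 17162 and 22005 CPM at 1 h in wild type, 5 of 5 passing the test. The root markers moved the other way, with 4 of 7 lower, a median change of -0.79 and a sum of 96.8 to 118 CPM at 0 h and 66.9 to 74.1 CPM at 1 h. All 6 listed heat shock genes of the cytosol also fell in this comparison, with a median change of -1.62. In the overexpressor all 6 rose from 0 h to 1 h (median 1.28), where 35.2% of all genes rose. The changes differed between the genotypes for all 6 (median 3.12), against 12.7% of all genes. The part of these markers in the results was not tested.

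Among the BiP genes, BIP2 held 423, 321 and 321 CPM in the 3 untreated wild-type libraries and 265, 287 and 235 CPM at 1 h. All libraries at 1 h were lower than all at 0 h. The change was -0.44 ± 0.12 (adjusted p = 0.00209), and that of BIP1 was -0.71 ± 0.10 (adjusted p = 1.8e-06). The summed counts of BIP1 and BIP2, which do not depend on how shared reads were split between them, fell by 0.58 (adjusted p = 6.36e-05). BIP3 held 1.48, 1.04 and 0.912 CPM at 0 h and 1.42, 1.30 and 1.14 CPM at 1 h, groups that overlapped, with a change of 0.16 ± 0.27 (adjusted p = 0.608).

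The J-domain partner and its complex member did not pass the test in the first hour. ERDJ3B held 85.4, 70.1 and 73.1 CPM at 0 h and 78.9, 84.3 and 69.1 CPM at 1 h in wild type, a change of 0.02 ± 0.08 (adjusted p = 0.79). SDF2 held 70.7, 57.0 and 65.4 CPM at 0 h and 69.5, 79.0 and 59.1 CPM at 1 h, a change of 0.11 ± 0.09 (adjusted p = 0.284). Both pairs of groups overlapped. Without the third wild-type library at 1 h, SDF2 passed at 0.22 (adjusted p = 0.0279).

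Of the lectin chaperones, the membrane-bound CNX1 fell by 0.73 ± 0.09 (adjusted p = 3.42e-07) and the soluble CRT1 fell by 0.46 ± 0.09 (adjusted p = 6.56e-05). CRT3, the plant-type calreticulin on which EFR depends, moved the other way. It held 57.8, 51.4 and 45.7 CPM at 0 h and 120, 142 and 94.2 CPM at 1 h, so that each library at 1 h was above each at 0 h. Its rise was 1.20 ± 0.10 (adjusted p = 9.72e-10), a 2.30-fold difference between group means of 51.6 and 119 CPM (n = 3 each). HSP90.7 fell by 0.40 ± 0.09 (adjusted p = 0.000395). PDIL1-1, which forms and rearranges disulfide bonds, changed by -0.25 ± 0.11 (adjusted p = 0.0395), a call that was lost without the first wild-type library at 0 h (-0.11, adjusted p = 0.348), the first at 1 h (-0.23, adjusted p = 0.105) or the third at 1 h (-0.17, adjusted p = 0.198).

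Transcript length moved with the fall at 1 h. Across genes, the deviation of a library from a gene's mean rose with each doubling of transcript length by 0.152 to 0.248 log2 units in wild type at 0 h, and the slope was -0.139 to -0.058 at 1 h. The members that did not fall were the 3 with the shortest transcripts, SDF2 (1476 bases), ERDJ3B (1603) and CRT3 (1615), together with BIP3 (2116), while the 6 that fell ran from CRT1 at 1851 bases to HSP90.7 at 3029. With the length trend removed, BIP1 (-0.45), CRT1 (-0.42) and CNX1 (-0.61) still fell and CRT3 still rose by 1.17. BIP2 (-0.22, adjusted p = 0.0549), PDIL1-1 (-0.17, adjusted p = 0.13) and HSP90.7 (-0.11, adjusted p = 0.204) no longer passed. The overexpressor had slopes of 0.197 to 0.272 at 0 h and of -0.372 to -0.147 at 1 h.

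**Figure D2:**
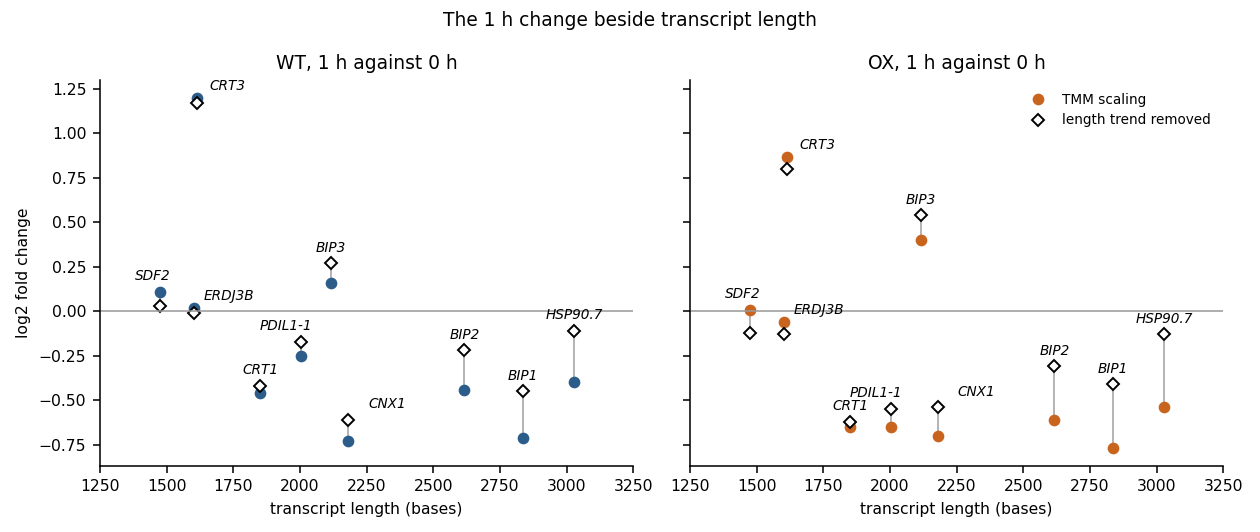
Change from 0 h to 1 h of each member (log2) against its transcript length in bases, with wild type and overexpressor drawn apart. Filled points are from TMM scaling and open diamonds have the length trend removed. Grey lines join the values of a gene and are not SEs. With TMM scaling CRT3 at 1615 bases is the only member with a rise past the threshold, and the 6 members that fell have transcripts of 1851 bases or more.

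By 6 h all 10 members had risen above 0 h in wild type, where 29.8% of all genes tested rose. Their median change was 1.52, against -0.01 over all genes. BIP3 moved most, from about 1 CPM to 33.4, 32.6 and 26.3 CPM, far above every library at 0 h or 1 h. Its change of 4.71 ± 0.21 (adjusted p = 3.78e-14) was a 26.2-fold rise, although the level it reached was the lowest of the 10 genes. BIP2 reached 1429, 1326 and 1299.7 CPM, with a rise of 1.93 ± 0.12 (adjusted p = 7.49e-12), and BIP1 rose by 1.55 ± 0.10 (adjusted p = 1.78e-11). For both, every library at 6 h lay above every untreated library. The leaf markers had turned by this time, with 5 of 5 lower than at 0 h and a sum of 4322 to 5012 CPM; their part in these results was not tested.

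The abundant members had their lowest wild-type mean at 1 h and their highest at 6 h. PDIL1-1 did not pass the test between 6 h and 12 h (-0.14, adjusted p = 0.267). Limits on the dip and on the fall after 6 h are given with those intervals. BIP1 ranged from 408 to 506 CPM over the 3 libraries at 0 h, from 244 to 294 at 1 h, from 1239 to 1363 at 6 h and from 982 to 1040.4 at 12 h. CNX1 ranged from 277 to 325 CPM at 0 h, from 171 to 187 at 1 h, from 821 to 889.7 at 6 h and from 585 to 631 at 12 h. For both genes no 2 of the 4 times overlapped. HSP90.7 lay between 425 and 501 CPM at 0 h, 301 and 377 at 1 h, and 969.7 and 1041 at 6 h, and CRT1 between 268 and 297 CPM at 0 h, 199.8 and 212 at 1 h, and 447 and 517 at 6 h, again without overlap. PDIL1-1 lay between 208 and 274 CPM at 0 h and between 176 and 218 at 1 h, which overlapped, and between 635 and 677 at 6 h.

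ERDJ3B and SDF2, which had not passed the test at 1 h, rose by 6 h. ERDJ3B held 235, 235 and 242 CPM, a rise of 1.64 ± 0.08 (adjusted p = 8.61e-14), and SDF2 held 147, 146 and 143 CPM, a rise of 1.18 ± 0.09 (adjusted p = 1.79e-10). No library at 6 h overlapped one at 0 h for either gene. CNX1 rose by 1.54 ± 0.09 (adjusted p = 4.71e-12), PDIL1-1 by 1.51 ± 0.11 (adjusted p = 7.46e-11), HSP90.7 by 1.13 ± 0.09 (adjusted p = 4.64e-10) and CRT1 by 0.79 ± 0.09 (adjusted p = 6.17e-08), all from the untreated level. Measured from 1 h, where these genes had been lower, the rises were larger, at 2.26 for CNX1 and BIP1, 2.37 for BIP2, 1.76 for PDIL1-1, 1.54 for HSP90.7 and 1.25 for CRT1. From 1 h to 6 h 9 of 10 members rose in wild type, against 34.7% of all genes, and the tenth, CRT3, fell, as did 34.4%.

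CRT3 held 97.9, 95.7 and 90.2 CPM at 6 h. That was above every untreated library, with a rise of 0.87 ± 0.10 over 0 h (adjusted p = 2.31e-07), but the difference from 1 h was -0.33 ± 0.10 (adjusted p = 0.00679) and the groups overlapped. Without the second wild-type library at 1 h this fall did not pass (-0.19, adjusted p = 0.0843). In the overexpressor the same step was -0.27 ± 0.10 (adjusted p = 0.0213), where 33.5% of all genes fell, and it did not pass without the first library at 6 h (-0.23, adjusted p = 0.0814) or with the length trend removed (-0.21, adjusted p = 0.0684).

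Between 6 h and 12 h the members parted. In wild type 26.4% of all genes rose and 26.5% fell over this interval; 6 members fell (BIP1, BIP2, BIP3, CRT1, CNX1 and HSP90.7) and 2 rose (CRT3 and SDF2). BIP3 held 11.5, 10.5 and 6.38 CPM, all below its libraries at 6 h and above those at 0 h, a change from 6 h of -1.67 ± 0.17 (adjusted p = 7.7e-08). CNX1 changed by -0.50 (adjusted p = 0.000107), BIP2 by -0.42 (adjusted p = 0.00401), BIP1 by -0.37 (adjusted p = 0.00325) and HSP90.7 by -0.30 (adjusted p = 0.00713). The libraries at 12 h had slopes on length of -0.29 to -0.142, against 0.042 to 0.179 at 6 h. With that trend removed BIP1 (-0.14, adjusted p = 0.194), BIP2 (-0.23, adjusted p = 0.0548) and HSP90.7 (-0.03, adjusted p = 0.774) did not pass, while ERDJ3B did at -0.18 (adjusted p = 0.0381). CRT1 at -0.20 and SDF2 at 0.21 were at the threshold (both adjusted p = 0.0498). Leaving out any 1 wild-type library of the 2 times except the third at 6 h for CRT1, and the first at 12 h for SDF2, took the call away, with adjusted p of 0.0501 to 0.208 for CRT1 and 0.0769 to 0.162 for SDF2.

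CRT3 went up again in the same interval. It held 146, 155 and 148 CPM at 12 h, all above its libraries at 6 h, a rise of 0.66 ± 0.10 (adjusted p = 2e-05) from 6 h and of 1.53 ± 0.10 (adjusted p = 1.53e-11) from 0 h. At 12 h all 10 members were still above 0 h in wild type, with 35.2% of all genes, and their median change was 1.38 against -0.04 over all genes. SDF2 (159, 167 and 178 CPM at 12 h) and CRT3 were the only members whose wild-type mean at 12 h was above that at 6 h.

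The course of CRT3 across the libraries was the least like that of the other members. Over the 24 libraries, Pearson's r of log2 CPM was 0.86 to 1.00 between any pair of the other 9 members and 0.24 to 0.61 between CRT3 and each of them. These values describe libraries that share genotype and time groups and were not tested. The overexpressor went through the same order of times as wild type in 7 of 10 genes; the exceptions were ERDJ3B, CRT1 and PDIL1-1, whose neighbouring times were close in level.

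In the overexpressor the same members moved at 1 h: CRT3 rose by 0.87 ± 0.10 (adjusted p = 1.71e-07), and BIP1, BIP2, CRT1, CNX1, PDIL1-1 and HSP90.7 fell, with changes of -0.77 to -0.54, against 35.2% of all genes that rose and 33.7% that fell. BIP3 held 1.24, 1.32 and 1.07 CPM at 0 h and 1.19, 1.78 and 2.09 CPM at 1 h, a change of 0.40 ± 0.25 (adjusted p = 0.161) that passed without the first library at 1 h (0.64, adjusted p = 0.0415). With the length trend removed HSP90.7 did not pass (-0.13, adjusted p = 0.135). At 6 h all 10 rose above 0 h, as did 30.1% of all genes, from 0.57 for CRT1 and 0.59 for CRT3 to 1.44 for ERDJ3B, 1.52 for BIP2 and 4.15 ± 0.21 for BIP3, which was 17.8-fold (adjusted p = 3.54e-13). BIP3 then held 17.9, 25.3 and 22.9 CPM. At 12 h all 10 were again above 0 h, with 34.9% of all genes, and the changes ran from 0.64 for CRT1 to 2.98 for BIP3. The comparisons of a genotype with 0 h share its 3 untreated libraries.

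Between 6 h and 12 h 3 of 10 members passed the test in the overexpressor, where 37.9% of all genes did. CRT3 rose by 0.84 ± 0.10 (adjusted p = 1.04e-06), BIP3 changed by -1.17 ± 0.17 (adjusted p = 1.06e-05) and CNX1 by -0.30 ± 0.09 (adjusted p = 0.0117). The call of CNX1 was lost without the second library at 6 h (-0.24, adjusted p = 0.0651). The summed BIP1 and BIP2 counts changed by -0.12 (adjusted p = 0.398) here and by -0.40 (adjusted p = 0.00379) in wild type. Without the first overexpressor library at 6 h, which lay lowest of its group for 9 of 10 members, BIP1 passed at -0.25 (adjusted p = 0.0471).

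**Figure D3:**
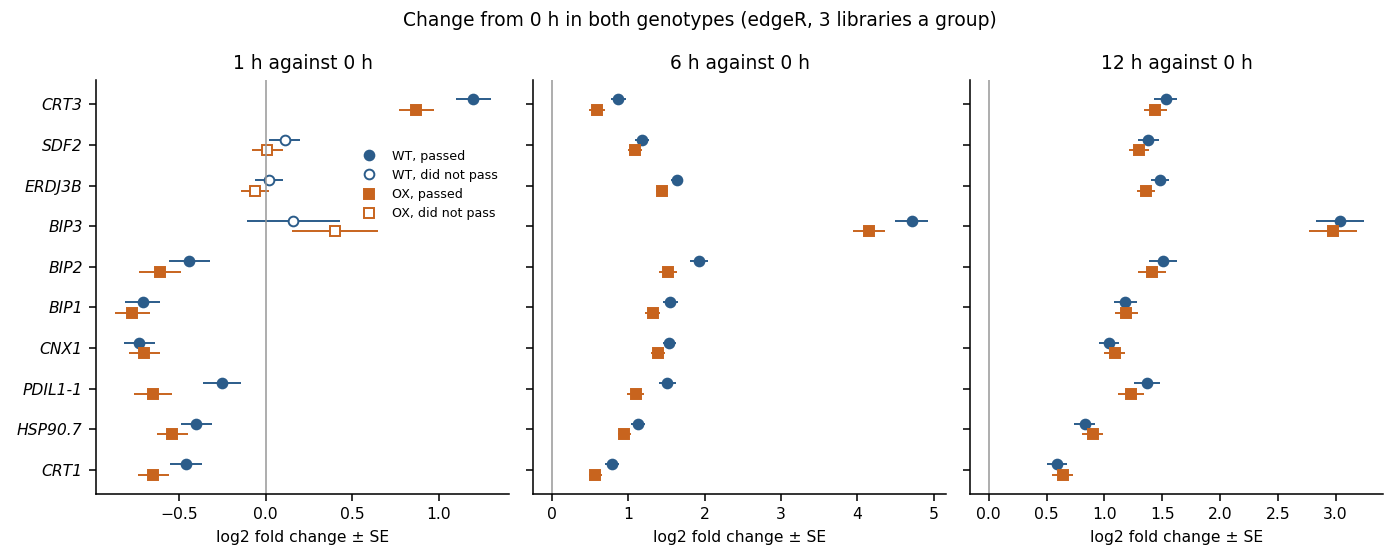
Change of each member from 0 h (log2, with SE) at 1 h, 6 h and 12 h of elf18 in wild type and in the overexpressor. All 10 genes lie above 0 at 6 h and at 12 h in both genotypes, from 0.57 to 4.71 at 6 h, while at 1 h CRT3 alone rose.

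EFR, the client on which the gene group is named, rose before most of its chaperones. It held 15.5 to 20.9 CPM in the 3 untreated wild-type libraries and 40.5, 39.5 and 35.4 CPM at 1 h, without overlap. The changes from 0 h were 1.09 at 1 h, 1.38 at 6 h and 1.38 at 12 h, each with an SE of 0.08, and in the overexpressor 1.05, 1.21 and 1.47, all past the threshold. FLS2, the flagellin receptor, rose by 1.05, 0.98 and 0.51 in wild type. The calls of both receptors held in all 13 alternative fits, but the sizes of the changes varied. EFR ran from 1.31 to 2.03 at 12 h in wild type and from 1.03 to 1.72 at 1 h in the overexpressor. FLS2 ran from 0.92 to 1.48 at 1 h in wild type, and its highest value at 12 h was close to its highest at 6 h. Tested directly in wild type, EFR rose from 1 h to 6 h (0.29) and FLS2 fell from 6 h to 12 h (-0.47). In the overexpressor neither receptor passed from 1 h to 6 h, and from 6 h to 12 h EFR rose (0.26) and FLS2 fell (-0.33). These steps were not followed over the alternatives. A levelling of EFR or a decline of FLS2 after 1 h is therefore not settled. Among the members CRT3 was the only one that rose at 1 h along with EFR.

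BZIP60 and IRE1A, the transcription factor and sensor genes of the unfolded protein response, rose at 1 h in wild type, when most members fell. The mRNA of BZIP60 held 58.4, 54.1 and 65.1 CPM at 0 h and 258, 242 and 217 CPM at 1 h in wild type, far apart. It rose by 2.02 ± 0.12 (adjusted p = 8.1e-13) at 1 h, and the change from 0 h was 1.08 at 6 h and 1.63 at 12 h. IRE1A rose by 0.73 (adjusted p = 3.34e-07) at 1 h and was lower than at 0 h by 6 h (-0.26, adjusted p = 0.0199) and 12 h (-0.53). IRE1B was at 0.06 and did not pass. BZIP28 rose by 0.45 (adjusted p = 4.84e-05) at 1 h, while BZIP17 (-0.14) did not pass there and rose by 0.82 at 6 h. In the overexpressor BZIP60 rose by 2.51 at 1 h (adjusted p = 3.15e-14). IRE1A there held 64.2, 64.1 and 64.8 CPM at 0 h and 61.2, 75.5 and 83.4 CPM at 1 h, groups that overlapped. The counts do not separate spliced from unspliced BZIP60 mRNA. Of the 13 listed regulators 7 rose and 2 fell at 1 h, a share called near that over all genes, of which 35.2% rose and 32.6% fell. Those that fell were TIN1 (-1.51, adjusted p = 7.33e-10), a gene induced by tunicamycin, and the protease gene S2P (-0.87, adjusted p = 8.08e-09); HSFB1 rose by 0.91 (adjusted p = 1.84e-08).

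Most other folding genes of the ER rose with the members at 6 h. At that time in wild type 16 of 17 other folding genes rose and 0 fell, with 29.8% of all genes rising, among them the J-protein gene ERDJ3A (2.21, adjusted p = 4.8e-14), the disulfide isomerase gene PDIL1-3 (1.75, adjusted p = 2.38e-14), P58IPK (1.66, adjusted p = 5.86e-12) and the second calnexin gene CNX2 (0.99, adjusted p = 1.59e-11). At 1 h 4 of the 17 had risen and 6 had fallen, where 35.2% of all genes rose and 32.6% fell. The 4 included both thiol oxidase genes, ERO1 (1.82, adjusted p = 8.12e-12) and ERO2 (1.24, adjusted p = 4.71e-12), which supply oxidising power to the disulfide isomerases. Their median change was 0.03 at 1 h and 1.20 at 6 h, against 0.01 and -0.01 over all genes.

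N-glycan genes matter for EFR because the receptor is heavily glycosylated and its folding is read from its glycans. At 6 h 13 of 16 rose and 1 fell, with a median change of 0.46, where 29.8% of all genes rose. HAP6 (0.77, adjusted p = 5.99e-08), STT3A (0.74, adjusted p = 4.09e-08), OST3/6 (0.70, adjusted p = 7.8e-08) and DGL1 (0.63, adjusted p = 2.07e-06) encode subunits of the oligosaccharyltransferase, and EBS4 was lower (-0.18, adjusted p = 0.0452), a call lost in 7 of 13 alternatives. At 1 h 3 of the 16 rose and 9 fell, against 35.2% and 32.6% of all genes. Among the falls were EBS3 (-1.08, adjusted p = 4.07e-11), EBS1 (-0.70, adjusted p = 0.000329), the glucosyltransferase gene whose product returns misfolded glycoproteins to the calreticulins, and STT3B (-0.62, adjusted p = 4.79e-08), and ERD2 (0.71, adjusted p = 3.21e-06), a receptor for retention signals of ER proteins, rose. EBS1 kept its call but ran from -0.78 to -0.16 over the alternatives, with adjusted p up to 0.0446. STT3A (-0.22) and RSW3 (-0.26), also among the falls, changed sign with the length trend removed. EBS1 was at -0.08 (adjusted p = 0.633) at 12 h.

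Of 9 genes of ER-associated degradation, which removes proteins that fail to fold, 5 rose and 0 fell at 6 h in wild type, where 29.8% of all genes rose. HRD1B (1.12), DER1 (0.92), EBS7 (0.67) and OS9 (0.66) were among them. At 1 h 5 rose, with DER2.1 (0.81) and EBS7 (0.64) highest, and 2 fell, among them DER1 (-0.40), with 35.2% of all genes rising and 32.6% falling. The medians over the list were 0.18 at 1 h and 0.40 at 6 h.

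**Figure D4:**
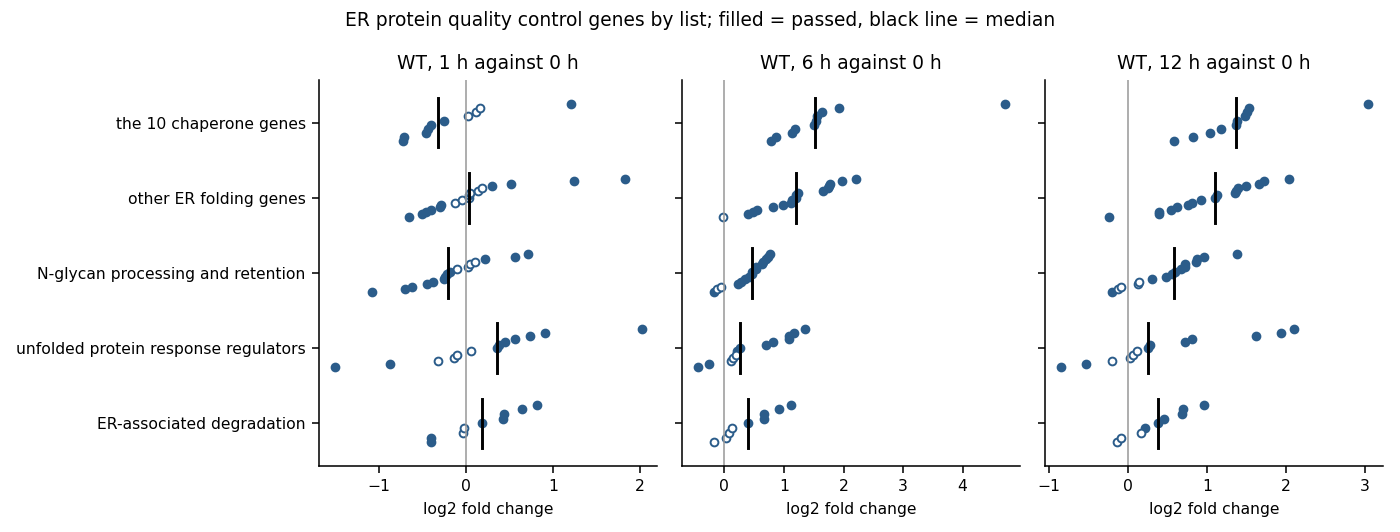
Change from 0 h (log2) of every gene in the member group and in the other ER lists at 1 h, 6 h and 12 h in wild type, 1 point per gene with the list median as a bar. At 6 h the medians are 1.52 for the members, 1.20 for other folding genes, 0.46 for N-glycan genes, 0.40 for degradation genes and 0.26 for unfolded protein response regulators.

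The genotypes were compared to see where the ELENA1 overexpressor differed from wild type in these genes. Before treatment 1 of 10 members did, against 14.6% of all genes tested, a share near the background. It was CRT3, which held 57.8, 51.4 and 45.7 CPM in wild type and 69.9, 71.2 and 73.5 CPM in the overexpressor, without overlap. The difference was 0.47 ± 0.10, or 1.38-fold (adjusted p = 0.00305), and it was 0.39 to 0.56 with adjusted p of 0.000256 to 0.0222 over the alternatives tried. ERDJ3B held 93.8, 85.1 and 87.8 CPM in the overexpressor, where the 3 wild-type libraries were at 85.4, 70.1 and 73.1, and the groups overlapped by a single library. Its difference of 0.22 ± 0.08 was at the threshold (adjusted p = 0.0501), and without the first wild-type library it was 0.31 (adjusted p = 0.0049). Without that library PDIL1-1 passed too, at 0.38 (adjusted p = 0.0106), where with it the difference was 0.24 (adjusted p = 0.136). The other 7 members differed by 0.00 to 0.12 at 0 h and did not pass.

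Untreated seedlings of the 2 genotypes also differed outside the ER. The 6 cytosolic heat shock genes, which report on heat and other stress to cytosolic proteins, were all lower in the overexpressor at 0 h, with a sum of 125 to 141 CPM against 361 to 549 CPM in wild type. The part of this in the difference of CRT3 was not tested. Leaf markers (5 of 5) and root markers (7 of 7) did not pass in that comparison. Of the client receptors, EFR did not pass (-0.07, adjusted p = 0.657), and FLS2 was higher in the overexpressor (0.36, adjusted p = 0.0138), a call lost in 5 of 13 alternatives.

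Among the other ER lists at 0 h, 4 of 13 unfolded protein response regulators differed between the genotypes, 1 higher and 3 lower, where 14.6% of all genes were called. TIN1 (-1.59, adjusted p = 2.47e-08), the membrane-bound transcription factor gene NAC062 (-0.54, adjusted p = 7.67e-05) and BZIP60 (-0.34, adjusted p = 0.0444) were lower in the overexpressor, and S1P (0.31, adjusted p = 0.00464) was higher. IRE1A (0.20), IRE1B (0.02), BZIP28 (-0.22) and BZIP17 (0.16) did not pass. Of 17 other folding genes ERDJ3A was lower (-0.79, adjusted p = 1.81e-05) and CNX2 higher (0.23, adjusted p = 0.0169). Of 16 N-glycan genes ERD2 (-0.34, adjusted p = 0.0323) and EBS3 (-0.23, adjusted p = 0.0359) were lower, and of 9 degradation genes DER2.1 (0.41, adjusted p = 0.00581) and HRD3A (0.21, adjusted p = 0.016) were higher. The calls of BZIP60, CNX2, ERD2 and EBS3 were each lost in 5 of 13 alternatives, that of HRD3A in 3 and that of DER2.1 in 2.

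At 1 h, 6 h and 12 h of elf18, edgeR called 0 of 10 members between the genotypes, against 5.70%, 1.52% and 1.65% of all genes tested. DESeq2 called 0, 0 and 1. At an unadjusted p under 0.05 in edgeR the counts were 0 at 1 h, 3 at 6 h (BIP1, BIP2 and BIP3) and 2 at 12 h (CRT3 and HSP90.7). The share of all genes at that looser cutoff was not counted, so the unadjusted counts cannot be set beside the percentages above. At 6 h all 3 BiP genes were lower in each overexpressor library than in each wild-type library, without passing the test. In the other direction, each overexpressor library lay above each wild-type library for CRT3 at 6 h. The same held for ERDJ3B, CRT1, CRT3, PDIL1-1 and HSP90.7 at 12 h. How many of all genes separated in this way was not counted, so no difference between the genotypes is read from these separations. BIP2 held 907, 1172 and 1214 CPM against 1429, 1326 and 1299.7, a difference of -0.30 ± 0.11 (adjusted p = 0.213). For BIP3 it was -0.49 ± 0.16 (adjusted p = 0.14) and for BIP1 -0.23 (adjusted p = 0.296). The first overexpressor library at 6 h was the lowest for each of the 3.

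CRT3 stayed higher in the overexpressor in every library pair at 6 h and 12 h, with differences that did not pass: 0.19 (adjusted p = 0.427) at 6 h and 0.37 ± 0.10 (adjusted p = 0.0649) at 12 h. At 12 h it held 193, 198 and 188 CPM in the overexpressor against 146, 155 and 148 CPM in wild type, and DESeq2 called it (0.35, adjusted p = 0.0299). At 1 h the groups overlapped. Of EFR, FLS2 and the named sensors and factors, IRE1A at 1 h was the only one called after treatment (-0.34, adjusted p = 0.0277), a call lost in 7 of 13 alternatives.

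**Figure D5:**
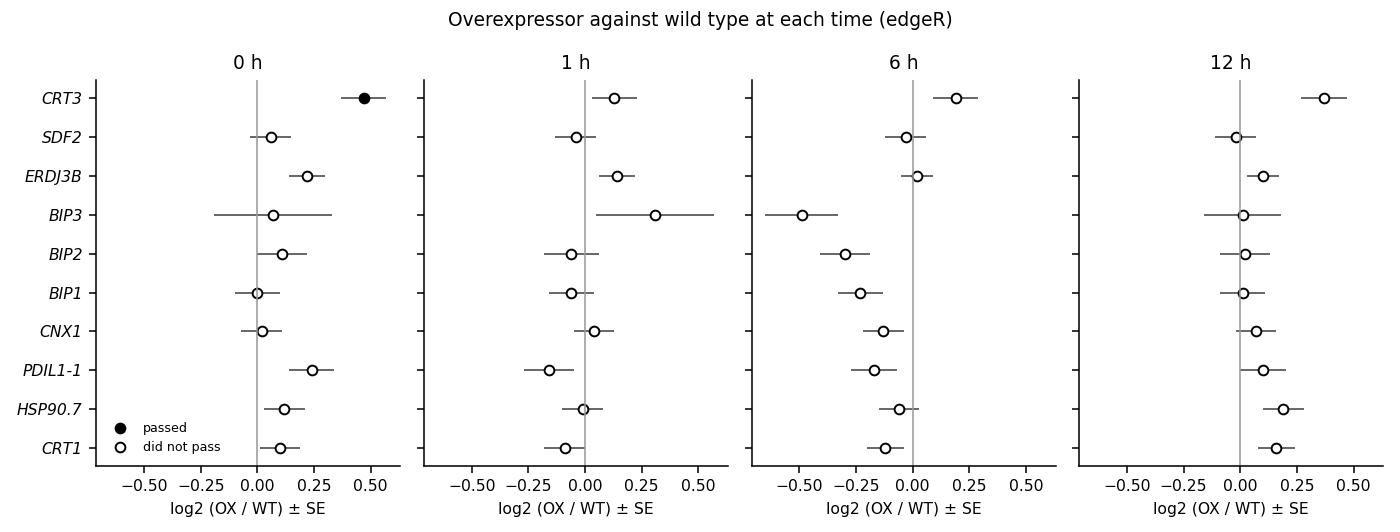
Difference between the overexpressor and wild type (log2, with SE) for each member at 0 h, 1 h, 6 h and 12 h, with calls marked. CRT3 at 0 h, at 0.47, is the only value past the threshold, and BIP1, BIP2 and BIP3 lie between -0.49 and -0.23 at 6 h.

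Whether the response itself differed between genotypes was tested as the difference of the 2 changes from 0 h. edgeR called 0 of 10 members at 1 h, 6 h and 12 h, against 12.7%, 6.34% and 5.52% of all genes, and DESeq2 called 0 at each. At an unadjusted p under 0.05 the counts were 2 at 1 h (CRT3 and PDIL1-1), 2 at 6 h (BIP2 and PDIL1-1) and 0 at 12 h. Here too the share of all genes at the looser cutoff was not counted. All 10 values at 6 h were below 0, from -0.56 for BIP3 (adjusted p = 0.327) to -0.09; since each contains the same untreated libraries, their shared sign is not independent. The largest at 1 h were -0.40 for PDIL1-1 (adjusted p = 0.0837) and -0.33 for CRT3 (adjusted p = 0.137). Without the first untreated wild-type library, PDIL1-1 passed at 1 h (-0.52, adjusted p = 0.011) and at 6 h (-0.54, adjusted p = 0.0109), and BIP2 at 6 h (-0.55, adjusted p = 0.0184). Without the third wild-type library at 1 h, CRT3 passed there (-0.46, adjusted p = 0.0155).

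The genes whose levels over the 24 libraries were most like those of 4 members were read from Pearson's r of log2 CPM among 17690 genes. For BIP2 they were the disulfide isomerase gene PDIL1-2 (0.992), ATERDJ2A (0.990), AT1G45688 (0.990), AT4G31650 (0.989) and CHX16 (0.989). ERDJ3B was followed by AT4G29520 (0.993), PDIL2-2 (0.992), UTR3 (0.991), P58IPK (0.990) and CHX16 (0.990). CRT3 shared none of these names, and its nearest genes were NAC036 (0.972), the kinase gene AT4G17660 (0.968), AT1G74440 (0.967), the receptor kinase gene AT4G18250 (0.965) and EP1 (0.964). Those of BIP3 were AT3G51980 (0.982), AT3G21330 (0.980), AT5G05180, AT3G50340 and AT3G24840 (each 0.976). The libraries share groups and depth, so these values are descriptions.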

How the data were processed

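Read counts per locus were deposited by the authors in 24 columns, 1 per library, per the file headers. The authors also deposited FPKM in 8 columns, 1 for each group; having no replicates, these were used only to check orders. Per the submitters' processing notes, which state no roles, the build was TAIR10 and the tools included Cuffdiff, Cufflinks 2.1.1, DESeq2 and TopHat2 2.0.8. How reads were counted, and whether by strand, is not given in the sources used here. Libraries were stranded and read as single 75-base reads, and the replicates of each condition shared a pool, per the labels' protocols. Per the labels the replicates are biological, without saying what was separate.

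All 24 libraries entered 1 quasi-likelihood fit with 8 group means in edgeR 4.0.16 (R 4.3.3), with TMM scaling and filterByExpr at a minimum count of 10, and with Benjamini-Hochberg adjustment over 21015 genes. There were 17 comparisons, 3 of them of the genotypes' changes. The fit was tested on simulated data. CPM are TMM-scaled. For the slopes on length, each library's deviation of log2 CPM from the gene's mean was regressed on log2 transcript length. The length trend that was removed was a locally smoothed (lowess) curve of the same deviations in each library, set as an offset in the fit. Of the tested genes, 59 had no length. Promoters, transcript lengths and neighbours came from the RefSeq annotation of TAIR10.1, and counts were joined to it by locus. Motifs were searched in 300 bases before the start.

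The 10 members and the other lists were chosen with earlier results of these data known. All members were tested in every comparison, and not every value is given above. From other lists up to 4 genes with the smallest adjusted p in a comparison were named, plus any showing the opposite direction, and EFR, FLS2, IRE1A, IRE1B, BZIP60, BZIP28 and BZIP17 always; further genes were named after their values were seen. For likeness the 5 genes of highest r were named, among those averaging at least 1 in log2 CPM. The closest replicates, OX 12 h replicates 1 and 3, differed by a chi-square of 1.65 per gene, above sampling noise. Alternatives were a block for replicate number, removal of the length trend, omission of 3 libraries together and omission of each library in turn. Others were fits to the compared libraries only, no low-count filter, RLE scaling, and DESeq2 1.42.0. The 3 libraries were OX 1 h replicate 1 (slope on length -0.372), OX 6 h replicate 1 (-0.106) and WT 12 h replicate 3 (-0.29). Each had the lowest slope of its group. They were not the steepest of all, since OX 0 h replicate 2 (0.272) was kept. Protein sequences were not used here.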

Additional observations from a re-analysis of the deposited data

Results flagged for a closer look

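No member's change from 0 h differed between the genotypes with all libraries in the fit; those that passed when 1 library was left out are given above. Among 57 other ER and client genes, 16 changes from 0 h differed between overexpressor and wild type by edgeR's test of the difference itself, given here as overexpressor minus wild type on the log2 scale. They were 8 at 1 h, 4 at 6 h and 4 at 12 h, where 12.7%, 6.34% and 5.52% of all genes tested were called, so the share was near the background. The largest was that of TIN1, at 1.98 for the change to 1 h (adjusted p = 2.84e-07), 1.53 for 6 h and 1.42 for 12 h. TIN1 held 7.19, 8.40 and 8.85 CPM in untreated wild type and 2.99, 2.80 and 2.05 CPM in the untreated overexpressor, without overlap, and at 12 h the genotypes were at 8.47 to 9.26 and 7.41 to 8.32 CPM. The 3 values share the untreated libraries.

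ERDJ3A differed by 0.82 for the change to 1 h (adjusted p = 0.00101), 0.60 for 6 h and 0.74 for 12 h, with 8.19, 9.21 and 8.74 CPM in untreated wild type against 5.03, 5.37 and 4.58 CPM in the overexpressor. NAC062, a membrane-bound transcription factor gene, differed by 0.44 at 1 h, 0.40 at 6 h and 0.55 at 12 h, the value for 6 h losing its call in 10 of 19 alternatives. IRE1A differed by -0.54 at 1 h (adjusted p = 0.00681). It held 88.3, 92.7 and 97.2 CPM at 1 h in wild type and 61.2, 75.5 and 83.4 CPM in the overexpressor.

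The remaining differences lost their call in at least 1 alternative. For the change to 1 h they were BZIP60 at 0.49 (6 of 19 alternatives), PDIL1-5 at -0.51 (3), S1P at -0.37 (8) and UBC32 at -0.28 (16). For 6 h it was PDIL1-3 at -0.41 (5), and for 12 h DER2.1 at -0.49 (10). The lowest and highest adjusted p over the alternatives were 0.0276 and 0.127 for BZIP60, 0.0219 and 0.167 for UBC32, and 0.011 and 0.134 for DER2.1.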

How the results depend on the processing

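Of 170 results, the 10 members in 17 comparisons, 146 stayed on their side of the threshold in every alternative, 12 called ones lost the call and 12 others gained one in at least 1, and 0 reversed. Between the genotypes at 0 h, 1 member was called. With the replicate block, without the 3 libraries left out together, with the length trend removed or with DESeq2 it was 2. Leaving out 1 library gave 1 to 3. At 12 h the count went from 0 to 1 with only the libraries compared, with the block and with DESeq2. With the length trend removed, the members called in wild type went from 7 to 4 at 1 h and from 8 to 4 between 6 h and 12 h; the cause was not tested. For the difference of the genotypes' changes, leaving out 1 library gave 0 to 1 at 1 h and 0 to 2 at 6 h. Replicate numbers were not taken to pair the libraries, since the labels tie them to no shared source and same-numbered deviations correlated at over 0.1 in 33 of 84 pairs (range -0.34 to 0.54, median 0.05), although 15 of 24 libraries correlated best with their own number, a hint from the data and not the design; replicate 3 was also the shallowest library of every group. Over all genes, the counts called at 6 h (319) and 12 h (346) between the genotypes became 572 and 746 with DESeq2, and 562 at 12 h with the block. For the other ER lists and the receptors, the check covered calls in wild type against 0 h and in the genotype comparisons. Calls in the overexpressor against 0 h were checked for EFR, FLS2, BZIP60 and IRE1A only, and steps between treated times were not checked. Of these 172 called results, 140 kept their call throughout and 31 lost it in at least 1 alternative. With the length trend removed, STT3A (0.10 from -0.22) and RSW3 (0.05 from -0.26) reversed at 1 h in wild type. Depth limited BIP3 most, at about 1 CPM before treatment.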

Other observations

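In the overexpressor at 6 h, where 30.1% of all genes rose, the lists gave the following counts. Of 17 other folding genes 16 rose and 1 fell, with a median change of 0.96. Of 16 N-glycan genes 11 rose and 0 fell (median 0.34), of 9 degradation genes 5 rose and 2 fell (median 0.20), and of 13 unfolded protein response regulators 7 rose and 3 fell (median 0.55). At 12 h in wild type, HSFB1 (4.30-fold, adjusted p = 2.13e-14), BI1 (1.94, adjusted p = 4.56e-11), a gene that limits cell death, and BZIP60 (1.63, adjusted p = 2.77e-11) were the regulators furthest above 0 h. DAD1, an oligosaccharyltransferase subunit gene, was at 1.38 (adjusted p = 1.91e-07), and the thiol oxidase gene ERO1 was at 2.04 (adjusted p = 1.19e-12).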
